A study of Mus musculus with 12 samples.

Results

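The genes described here encode the enzymes that build cholesterol from acetyl-CoA, the proteins that sense sterols and switch those enzymes on, and the enzymes that make, desaturate and elongate fatty acids. Members were taken by gene symbol from a list of 36 genes, and all 36 were found among the 11806 genes of the authors' deposited table, each with an adjusted p. The study compared 6 vitrified with 6 fresh ovarian follicles, each lysed whole, amplified by a Smart-seq protocol for full-length cDNA and sequenced as a library of its own. The follicles came from 16-day-old mice of CD-1, an outbred stock, so follicles of different animals are not genetically alike. Both groups grew singly in 0.5% alginate for 8 days with recombinant follicle-stimulating hormone at 10 mIU/mL, in a medium that also held albumin, fetuin, insulin, transferrin and selenium. The vitrified group differed by a step of cooling to a glass, but no source used here gives its procedure. Nor do they tell which follicles came from the same animal, so the p-values treat the follicles as independent and may measure spread within few animals.

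In mammalian cells, acetyl-CoA is turned through mevalonate into squalene, which is closed into lanosterol and trimmed to cholesterol. The membrane-bound transcription factors SREBP1 and SREBP2 are held in the endoplasmic reticulum by INSIG while sterols are plentiful and are carried to the Golgi by SCAP for cleavage when sterols run low. SREBP2 mainly drives the sterol enzymes and SREBP1 mainly those of fatty acids. In the mouse follicle, granulosa cells around the oocyte are known to supply it with cholesterol, and granulosa and theca cells use cholesterol as the raw material of steroids.

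Values per follicle were not used here, because the table holds 1 row of pooled values per gene. Each gene has a total over the libraries, which may be raw or scaled since no source used here says, a signed fold of vitrified over fresh, a p and a step-up adjusted p, and a gene is called changed at an adjusted p under 0.05. The 95% intervals below were derived from the deposited fold change and p. Of the 36 members, 1 was called, the stearoyl-CoA desaturase gene Scd2, which fell in vitrified follicles. That is 2.78% of the members, against 0.529% of the 10963 genes tested, and 0.721% of the 6522 tested genes with a total between 226 and 27568, the range of the members. For calls in the lower direction the share over all tested genes was 0.283%. With a single call, the share says little about the list.

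At an unadjusted p under 0.05 there were 5 members, Scd2, Acat2 and Mvk lower and Fads2 and Insig1 higher, which is 13.9% of the list, against 7.02% of all tested genes and 8.36% of those in the same range of totals. Higher values were found for 17 members and lower values for 19. The median log2 fold change of the members was -0.03, against -0.02 over all tested genes, of which 53.2% were lower. The derived interval lay wholly within 2-fold either way for 33 members, or 91.7%, where it did so for 69.1% of all tested genes and for 88.7% of those in the same range of totals. The 3 members whose interval reached 2-fold were Scd2, Fads2 and Acat2. Without Scd2 and Fads2, the log2 fold changes of the remaining 34 members ran from -0.55 to 0.37.

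**Figure D1:**
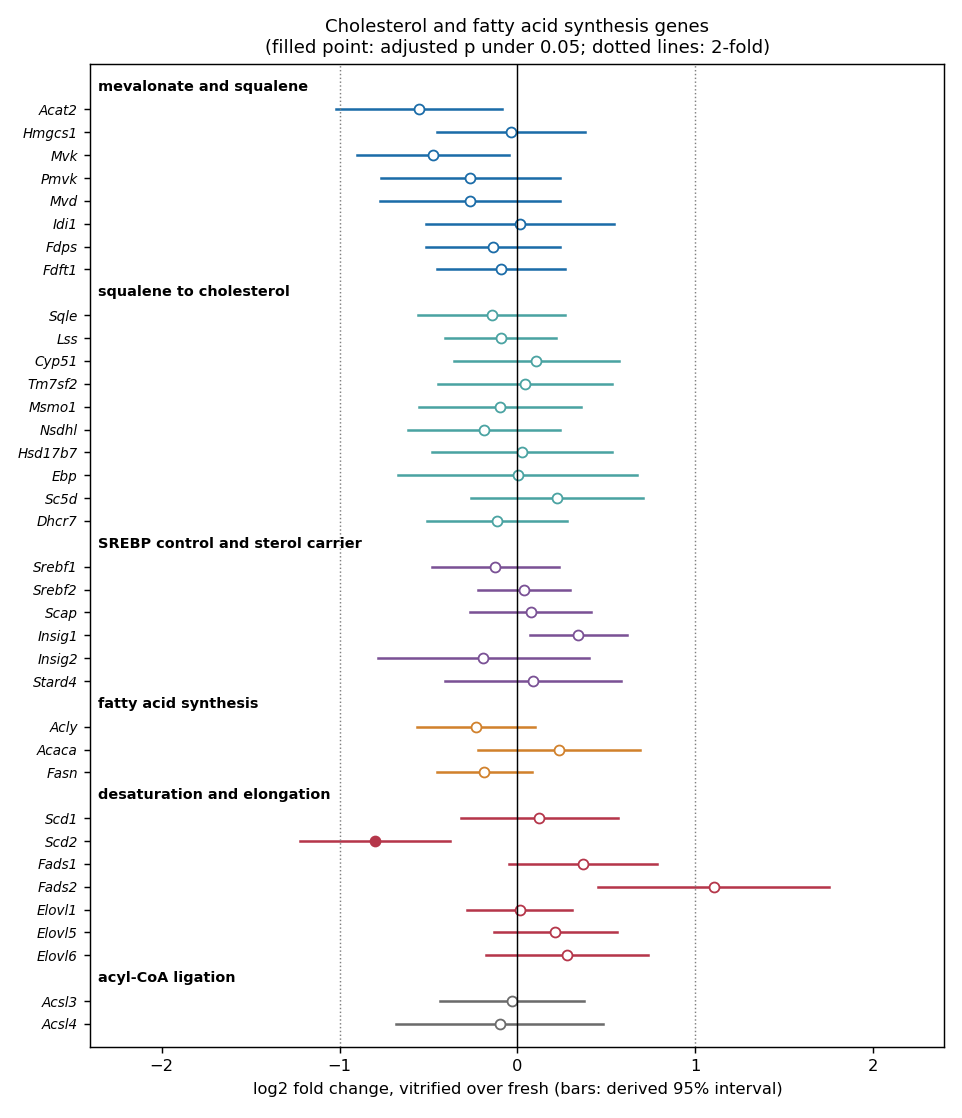
Log2 fold change of each member (x axis, vitrified over fresh) by role; points are the deposited values, bars the derived 95% intervals, and dotted lines mark 2-fold. Only the point of Scd2, at -0.80, is filled, and the interval of Fads2 runs from 0.45 to 1.75.

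The promoters of 4 members with unlike log2 fold changes are shown. These are Mvk at -0.47, the synthase gene Hmgcs1 at -0.04, Insig1 at 0.34 and the desaturase gene Fads2, the member with the largest fold, at 1.10. They do not reach the low end of the list, since Scd2, at -0.80, has no window and Acat2, at -0.55, is not shown. RefSeq (GRCm38.p6) gave 38 start windows for 29 members, each from 250 bases before a start to 50 after it. The members with no window were Fdps, Fdft1, Sqle, Stard4, Scd1, Scd2 and Fads1. Capitals mark matches on either strand to TCACNCCAC, the core of the sterol regulatory element, to CACGTG, an E-box, and to CCAAT, the box bound by NF-Y. None of the 3 motifs lies inside another, although matches may overlap at their ends, and on the opposite strand CCAAT reads as ATTGG.
Hmgcs1, chr13:119690101-119690400, plus strand: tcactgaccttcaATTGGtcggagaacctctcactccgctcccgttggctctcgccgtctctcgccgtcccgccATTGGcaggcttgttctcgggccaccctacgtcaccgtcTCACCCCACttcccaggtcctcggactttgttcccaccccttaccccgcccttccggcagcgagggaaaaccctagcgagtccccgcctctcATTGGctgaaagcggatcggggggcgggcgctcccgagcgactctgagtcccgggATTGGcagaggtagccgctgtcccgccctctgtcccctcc
Mvk, chr5:114444019-114444318, plus strand: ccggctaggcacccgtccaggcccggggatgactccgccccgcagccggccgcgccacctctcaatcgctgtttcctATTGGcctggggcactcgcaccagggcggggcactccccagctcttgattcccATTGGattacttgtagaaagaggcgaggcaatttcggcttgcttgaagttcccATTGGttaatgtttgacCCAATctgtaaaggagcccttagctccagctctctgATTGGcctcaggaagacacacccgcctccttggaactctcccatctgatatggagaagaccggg
Insig1, chr5:28071162-28071461, plus strand: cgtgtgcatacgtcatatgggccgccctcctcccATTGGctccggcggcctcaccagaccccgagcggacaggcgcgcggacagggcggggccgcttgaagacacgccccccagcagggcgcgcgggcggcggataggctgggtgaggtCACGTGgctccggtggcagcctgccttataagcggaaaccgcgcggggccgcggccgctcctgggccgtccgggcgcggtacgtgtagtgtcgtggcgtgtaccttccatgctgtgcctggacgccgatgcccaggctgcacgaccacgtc
Fads2, chr19:10101454-10101753, minus strand: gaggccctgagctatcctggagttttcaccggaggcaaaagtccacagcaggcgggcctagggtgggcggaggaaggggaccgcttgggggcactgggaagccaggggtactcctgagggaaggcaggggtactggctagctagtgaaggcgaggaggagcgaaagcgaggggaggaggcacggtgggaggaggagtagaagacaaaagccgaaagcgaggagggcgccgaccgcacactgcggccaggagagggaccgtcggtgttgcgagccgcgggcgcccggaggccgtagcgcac
The window of Hmgcs1 held 1 match to the sterol core, at position -137 from the start site, and 4 CCAAT boxes. That of Mvk held 5 CCAAT boxes, that of Insig1 1 CCAAT box and 1 E-box at position -101, and that of Fads2 had no match to any of the motifs. Such a lack says only that these letters are not in this window.

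Over the 29 members with a window, 23 had a CCAAT box in at least 1 of their windows, or 79.3%, against 41.1% of all 27025 genes with a window and 43.9% of the 8052 tested genes with one. An E-box was found for 6 members, or 20.7%, against 12.3% of those tested genes, and the sterol core for 1, or 3.45%, against 1.45%. Per window of 300 bases, 37.4% of all 32851 windows held a CCAAT box, 7.15% an E-box and 1.24% the sterol core. Of the 38 windows of members, 63.2% held a CCAAT box, 18.4% an E-box and 2.63% the sterol core. Whether the fold changes went with the number of boxes was not tested. Mvk, with 5 CCAAT boxes, stood at -0.47 on the log2 scale of the authors' deposited table. Hmgcs1 and Nsdhl, with 4 each, stood at -0.04 and -0.19. With 3 each, Insig2 and Fasn were at -0.19, Msmo1 at -0.10 and Hsd17b7 at 0.03. Members with 2 boxes ran from Mvd at -0.27 to Elovl5 at 0.21, and those with 1 from Pmvk at -0.26 to Insig1 at 0.34. Members with a window but 0 boxes were Acat2 at -0.55, Acsl4 at -0.10, Scap at 0.08, Acaca at 0.23, Elovl6 at 0.28 and Fads2 at 1.10. A match is a description and not a bound site.

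**Figure D2:**
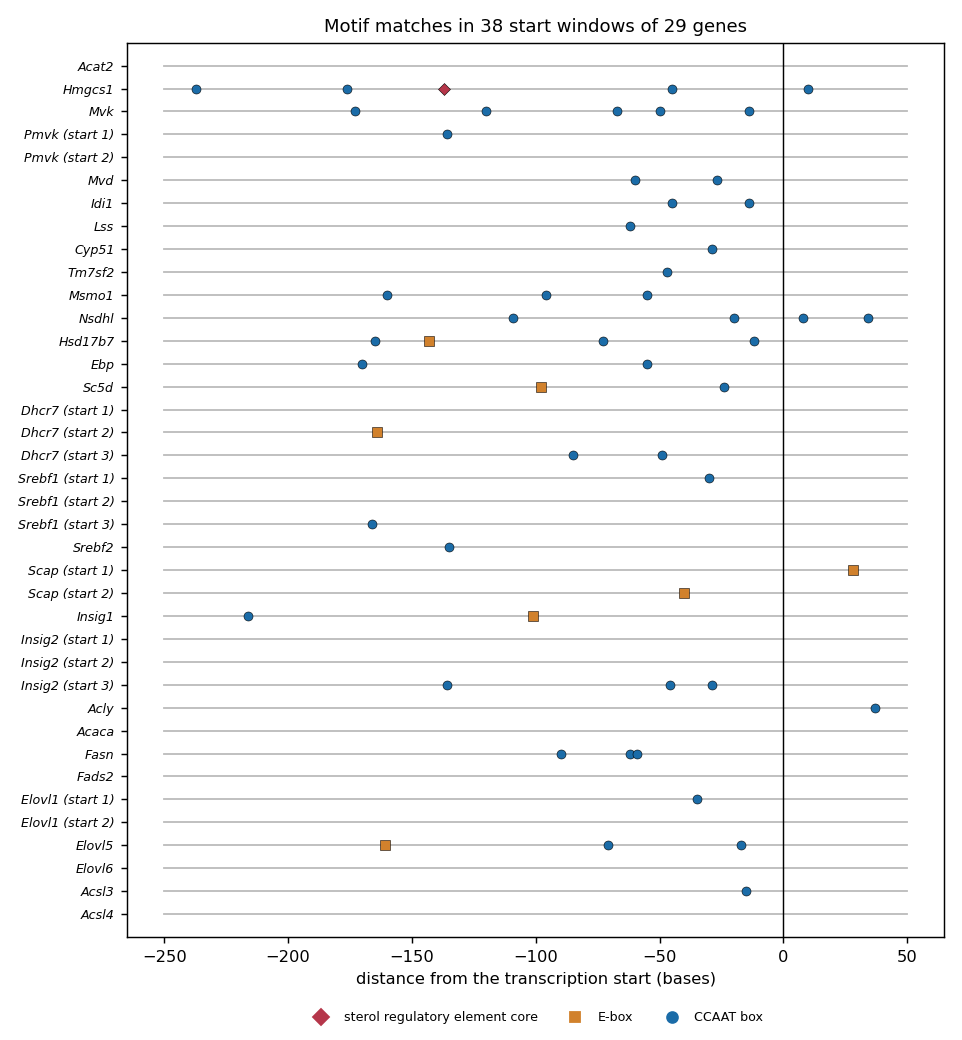
Motif matches (points) by distance in bases from the transcription start (x axis) in the 38 start windows of 29 members (rows). The single diamond, the sterol core, is in Hmgcs1, and CCAAT boxes (circles) are found in 23 of the 29 genes.

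Levels of different genes were compared as the total per kilobase of the longest coding transcript, pooled over both groups, so the order within a group may differ, above all for Scd2 with its fold of 1.74. Fdps, which makes farnesyl diphosphate, had the highest pooled value, 5726 per kilobase, with 51.4% of its windows shared with another gene, followed by Scd2 at 5054 and by Msmo1, a demethylase of lanosterol derivatives, at 4867. The lowest were Acaca, the acetyl-CoA carboxylase gene that commits carbon to fatty acids, at 109 and the acyl-CoA ligase gene Acsl4 at 84.9. Of the totals not divided by length, Scd2 alone took 19.1% of the members' sum of 144103, and it ranked 76th among the 10963 tested genes. The 2 stearoyl-CoA desaturase genes among the members thus stood far apart, with Scd1 at 359 per kilobase.

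**Figure D3:**
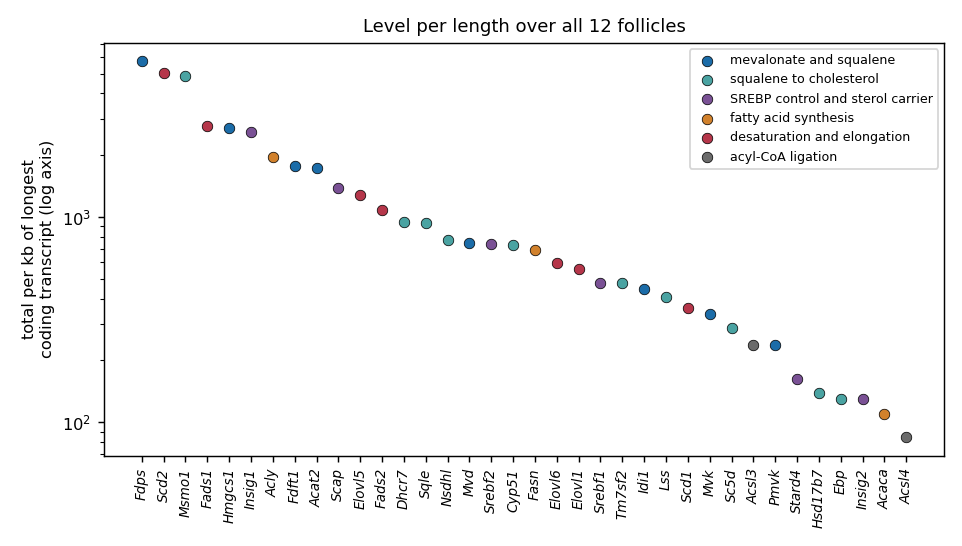
Total per kilobase of the longest coding transcript (y axis, log scale), pooled over the 12 follicles, for each member in descending order, coloured by role. Fdps, Scd2 and Msmo1 stand highest, between 4867 and 5726, and Acsl4 lowest at 84.9.

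The genes from acetyl-CoA to squalene leaned lower, and none of the 8 passed the test. Lower values were found for 7 of them, or 87.5%, against 53.2% of all tested genes. A higher value was found for 1, and the median on the log2 scale was -0.20. Acat2, whose enzyme joins 2 acetyl-CoA in the cytosol, had the lowest p of the branch, with a total of 3894, a log2 fold change of -0.55 (interval -1.02 to -0.09), p = 0.0204 and adjusted p = 0.526 in the authors' deposited table. Of its sequence windows of 50 bases, 50.4% also occur in its paralog Acat3, itself at -0.46 by the authors' deposited table, so the counts of both are uncertain. Mvk, mevalonate kinase, whose window with 5 CCAAT boxes is printed above, lies on chromosome 5 from 114444269 to 114460591 (GRCm38). It had a total of 557 and a log2 fold change of -0.47 (-0.90 to -0.05) with p = 0.03 and adjusted p = 0.604 in the authors' deposited table.

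The remaining genes of this branch had smaller log2 fold changes, and whether these differ from that of Mvk was not tested. Pmvk and Mvd, which phosphorylate mevalonate phosphate and decarboxylate the product, stood at -0.26 and -0.27 in the authors' deposited table, both with adjusted p = 0.996. Hmgcs1, the HMG-CoA synthase gene and a classic SREBP2 target, had a total of 9397 and a log2 fold change of -0.04 (-0.45 to 0.38) with p = 0.859 and adjusted p = 0.999 in the authors' deposited table. The isomerase gene Idi1 was at 0.01, Fdps at -0.14 and the squalene synthase gene Fdft1 at -0.09 in the authors' deposited table. Sequence is shared with other genes for 51.4% of the windows of Fdps, 38.7% of Idi1 and 15% of Fdft1, so their counts are less certain than those of Hmgcs1 or Mvk.

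The enzymes from squalene to cholesterol were evenly split, with 5 of 10 higher, 5 lower and 0 called. Their intervals together ran from -0.67 to 0.71 on the log2 scale, so a difference of 2-fold lay outside each of the 10. Msmo1 had the highest total, 9947, with a log2 fold change of -0.10 (-0.56 to 0.36), p = 0.675 and adjusted p = 0.999 in the authors' deposited table. Sc5d, the lathosterol desaturase gene, had the highest value of the branch, 0.22 (-0.26 to 0.71) on a total of 1382, with p = 0.369 and adjusted p = 0.999 in the authors' deposited table. At the other end Nsdhl, a sterol dehydrogenase gene on the X chromosome, had -0.19 (-0.62 to 0.24) on a total of 1670, with p = 0.383 and adjusted p = 0.999 in the authors' deposited table.

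Sqle, squalene epoxidase, a rate-limiting enzyme of the branch, was at -0.15, and Lss, which closes the ring of lanosterol, at -0.09 in the authors' deposited table. Cyp51, the lanosterol demethylase gene, stood at 0.11, the sterol reductase gene Tm7sf2 at 0.04 and Hsd17b7 at 0.03 in the authors' deposited table. The isomerase gene Ebp, at the lowest total of the list, 226, and with the widest error of 0.34, was at 0.0014, and Dhcr7, which makes the last reduction to cholesterol, at -0.12 in the authors' deposited table. Across both branches, 12 of 18 sterol enzyme genes had lower values, or 66.7%, against 53.2% of all tested genes, with a median of -0.10 and 0 called.

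Of the genes that control the pathway, none of the 6 passed, and the sterol sensor gene Insig1 had the lowest p. Insig1, on chromosome 5 from 28071363 to 28078662, had a total of 7021 and was 1.27-fold higher, at 0.34 (0.07 to 0.61) on the log2 scale, with p = 0.0131 and adjusted p = 0.445 in the authors' deposited table. INSIG1 retains SCAP and the SREBPs in the endoplasmic reticulum, and its own gene is a target of SREBP. Srebf2, which encodes SREBP2, stood at 0.04 with the smallest error of the list, 0.13, and with an interval of -0.22 to 0.30 derived from the authors' deposited table. Srebf1, the SREBP1 gene, had a total of 2042 and a log2 fold change of -0.12 (-0.48 to 0.23), with p = 0.495 and adjusted p = 0.999 in the authors' deposited table. Scap was at 0.08, Insig2 at -0.19 on a total of only 348, and Stard4, a soluble carrier of cholesterol, at 0.09 in the authors' deposited table.

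The core of fatty acid synthesis was also without a called gene. Acly, which splits citrate into cytosolic acetyl-CoA, had a total of 8626 and a log2 fold change of -0.23 (-0.56 to 0.10), with p = 0.17 and adjusted p = 0.919 in the authors' deposited table. Fasn, the fatty acid synthase that builds palmitate, had a total of 6912 and stood at -0.19 (-0.45 to 0.08), with p = 0.169 and adjusted p = 0.918 in the authors' deposited table. Between these enzymes in the pathway, Acaca was at 0.23 (-0.22 to 0.69) by the authors' deposited table, the opposite sign, and 36.6% of its windows occur in another gene.

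The desaturases gave both the call and the largest fold of the list, in opposite directions. Scd2, which puts the double bond into stearoyl-CoA to make oleate, lies on chromosome 19 from 44293674 to 44306864 and had the highest total of the list, 27568. It was 1.74-fold lower in vitrified follicles, at -0.80 (-1.22 to -0.38) on the log2 scale, with p = 2.0e-04 and adjusted p = 0.0424 in the authors' deposited table. By p it ranked 53rd among the 10963 tested genes. The call lies close to the threshold, since centring fold changes on the median of all tested genes gave an adjusted p of 0.0563, centring on the genes with a total of at least 1000 gave 0.0518, and a t distribution of 10 degrees of freedom gave 0.816. In that last setting 0 of all 10963 genes passed. The paralog Scd1, on the same chromosome with 87590 bases between them, had a total of 1735 and stood at 0.12 (-0.32 to 0.56), where the authors' deposited table gives an adjusted p of 0.999. Of the windows of Scd2, 5.96% occur in another gene, the largest share of them in the paralog Scd3.

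Fads2, the delta-6 desaturase that takes the first step from essential fatty acids to the long polyunsaturated ones, lies on chromosome 19 from 10062765 to 10101746. It had a total of 3400 and was 2.15-fold higher, at 1.10 (0.45 to 1.75), with p = 9.1e-04, and its adjusted p of 0.118, from the authors' deposited table, missed the threshold. Fads1, the delta-5 desaturase that acts later on the same chain, starts on the opposite strand with 81141 bases between the genes, and was at 0.37 (-0.05 to 0.79) where the authors' deposited table gives an adjusted p of 0.814. Fads3, next to Fads2 at 2654 bases, had a total of only 81.9 and stood at -0.16 (-1.07 to 0.75) by the authors' deposited table. The elongase genes that work with the desaturases had values of 0.01 for Elovl1, 0.21 for Elovl5 and 0.28 for Elovl6 in the authors' deposited table, all 3 above 0 and none called. Thus 6 of the 7 genes of desaturation and elongation had higher values, with a median of 0.21, and the only lower one was Scd2. Over all tested genes, 53.2% were lower. Whether Scd2 differs from Scd1, or from Fads2, in its response was not tested, because the genes were measured in the same follicles and their joint spread is not in the values used here.

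**Figure D4:**
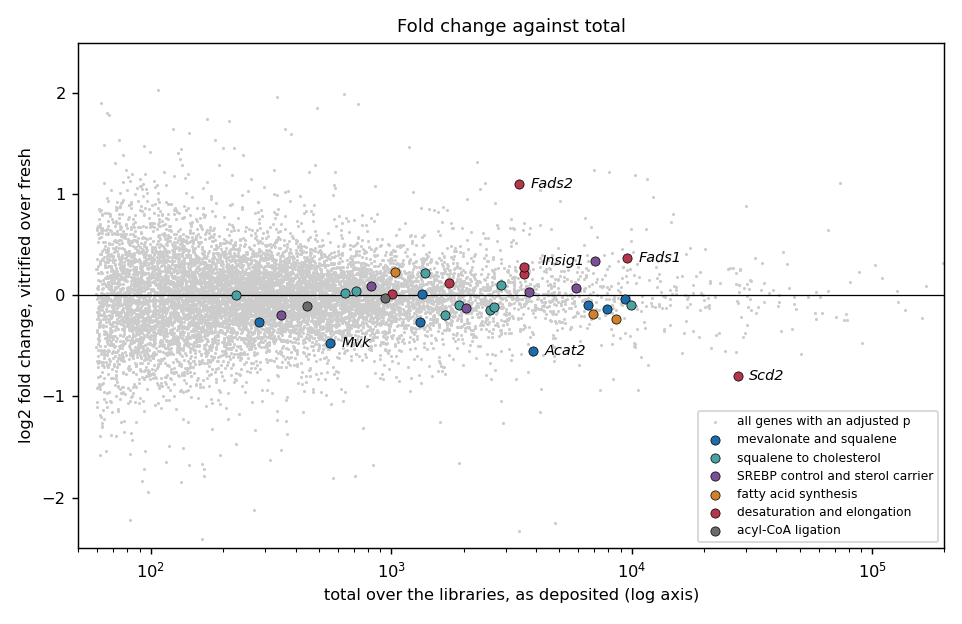
Log2 fold change (y axis) against the total over the libraries (x axis, log scale) for all genes with an adjusted p (grey) and the 36 members, coloured by role; 19 grey genes lie outside the axes. Scd2 at -0.80 and Fads2 at 1.10 are the lowest and highest members, and Acat2 at -0.55 and Mvk at -0.47 lie next above Scd2.

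The 2 acyl-CoA ligase genes, whose enzymes activate fatty acids for use in lipids, were close to 0. Acsl3 had a total of 941 and a log2 fold change of -0.03 (-0.44 to 0.37), with p = 0.884 and adjusted p = 0.999, and Acsl4, which prefers arachidonate, a total of 448 and -0.10 (-0.68 to 0.48), with p = 0.735 and adjusted p = 0.999 in the authors' deposited table.

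Markers of the cells of a follicle were read beside these results, since in whole follicles fewer cells of a type and less RNA per cell cannot be told apart. Of the 8 granulosa markers 7 were found, with a summed total of 1575933, 4 higher and 3 lower and 0 called. The authors' deposited table has Inha at -0.02, Fshr at 0.67 with p = 0.0128 and adjusted p = 0.44, and Foxl2 at -0.40 with adjusted p = 0.823. All 7 oocyte markers found of 9 had higher values, on a summed total of only 1077, and 0 of the 6 with an adjusted p were called. Their log2 fold changes ran from 0.43 (-0.63 to 1.48) for Gdf9 to 1.29 (-0.39 to 2.97) for Zp2. Of the 5 theca markers found of 6, 4 had higher values, among them Insl3 at 2.70 (adjusted p = 0.144) and Star at 1.60 (adjusted p = 0.111) in the authors' deposited table, with 0 called. Cyp17a1, on a total of 1186, was at 1.47 with adjusted p = 0.735 in the authors' deposited table. Lhcgr, with 15259 of the summed total of 18860, was at 0.08 and Ptch1 at -0.15 in the authors' deposited table. The windows of Insl3 are shared with another gene for 60.9%. The 3 endothelial markers found of 4 had lower values, between -1.66 and -1.25, on a summed total of 2044, and 0 of the 2 with an adjusted p were called. Further, 0 of 3 immune markers had a row. The granulosa marker Amh, the oocyte markers Ooep and Oosp1, the theca marker Gli1 and the endothelial marker Tek had no row either. These marker genes were named after their values were seen. The part of these cell types and their RNA in the values of Scd2 and Fads2 was not tested.

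Other genes of the same pathways, outside the 36, gave 0 calls. Of 61 such genes 50 were found and 49 had an adjusted p, 23 higher and 26 lower, around a median of -0.04 on the log2 scale. An unadjusted p under 0.05 was found for 6 of the 49. Over all 10963 tested genes, 7.02% had such a p and 0.529% were called. The mitochondrial thiolase gene Acat1 was at 0.11 in the authors' deposited table. In the branches that lead from farnesyl diphosphate to other products, Fntb, the beta subunit of farnesyltransferase, was at -0.80 (-1.47 to -0.13) with p = 0.0198 and Pdss2, of ubiquinone synthesis, at 0.72 with p = 0.154 in the authors' deposited table. Among genes for SREBP cleavage and sterol-regulated degradation, Erlin1 was at -0.41 and Rnf139 at 0.19 in the authors' deposited table.

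Soat1, which esterifies cholesterol for storage, had the highest total of these genes, 65636, and was 1.57-fold higher, at 0.65 (0.02 to 1.28), with p = 0.0419 and adjusted p = 0.684 in the authors' deposited table. Gramd1a, which moves cholesterol from the plasma membrane to the endoplasmic reticulum, was at 0.21 in the authors' deposited table. Among suppliers of acetyl-CoA and NADPH, Acss2, the acetate-activating enzyme gene, was at -0.58 (-1.16 to -0.0012) with p = 0.0495 and the malic enzyme gene Me1, 29.9% of whose windows occur in another gene, at 0.25 in the authors' deposited table. Hacd3, a dehydratase of the elongation cycle, was at 0.48 (0.05 to 0.91) with p = 0.0297 and the electron donor gene Cyb5r3 at 0.26 in the authors' deposited table. Of the 10 other genes of desaturation and elongation with an adjusted p, however, 7 had lower and 3 had higher values, with a median of -0.06 and 0 called.

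Mlxipl, which encodes the glucose-responsive factor ChREBP, another activator of fatty acid synthesis genes, had the largest value of the other genes, 1.25 (0.27 to 2.22), on a total of only 79.2, with p = 0.0122 and adjusted p = 0.425 in the authors' deposited table. The ligase gene Acsl5 stood at 0.30 on a total of 125 in the authors' deposited table. For glycerolipids, Lpin1, a phosphatidate phosphatase gene, was at -0.60 (-1.16 to -0.04) with p = 0.0344 and Gpam, of the first acylation of glycerol phosphate, at -0.34 in the authors' deposited table. The desaturase paralog Scd3 had a total of 43.6, and no adjusted p, and its value was -0.65 (-1.95 to 0.65) by the authors' deposited table. Fads3 and Scd3 were named after their values were seen. Of the 49 other genes, intervals lay within 2-fold for 37, or 75.5%, fewer than among the members, and their median total was 601, against 2310 for the members.

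**Figure D5:**
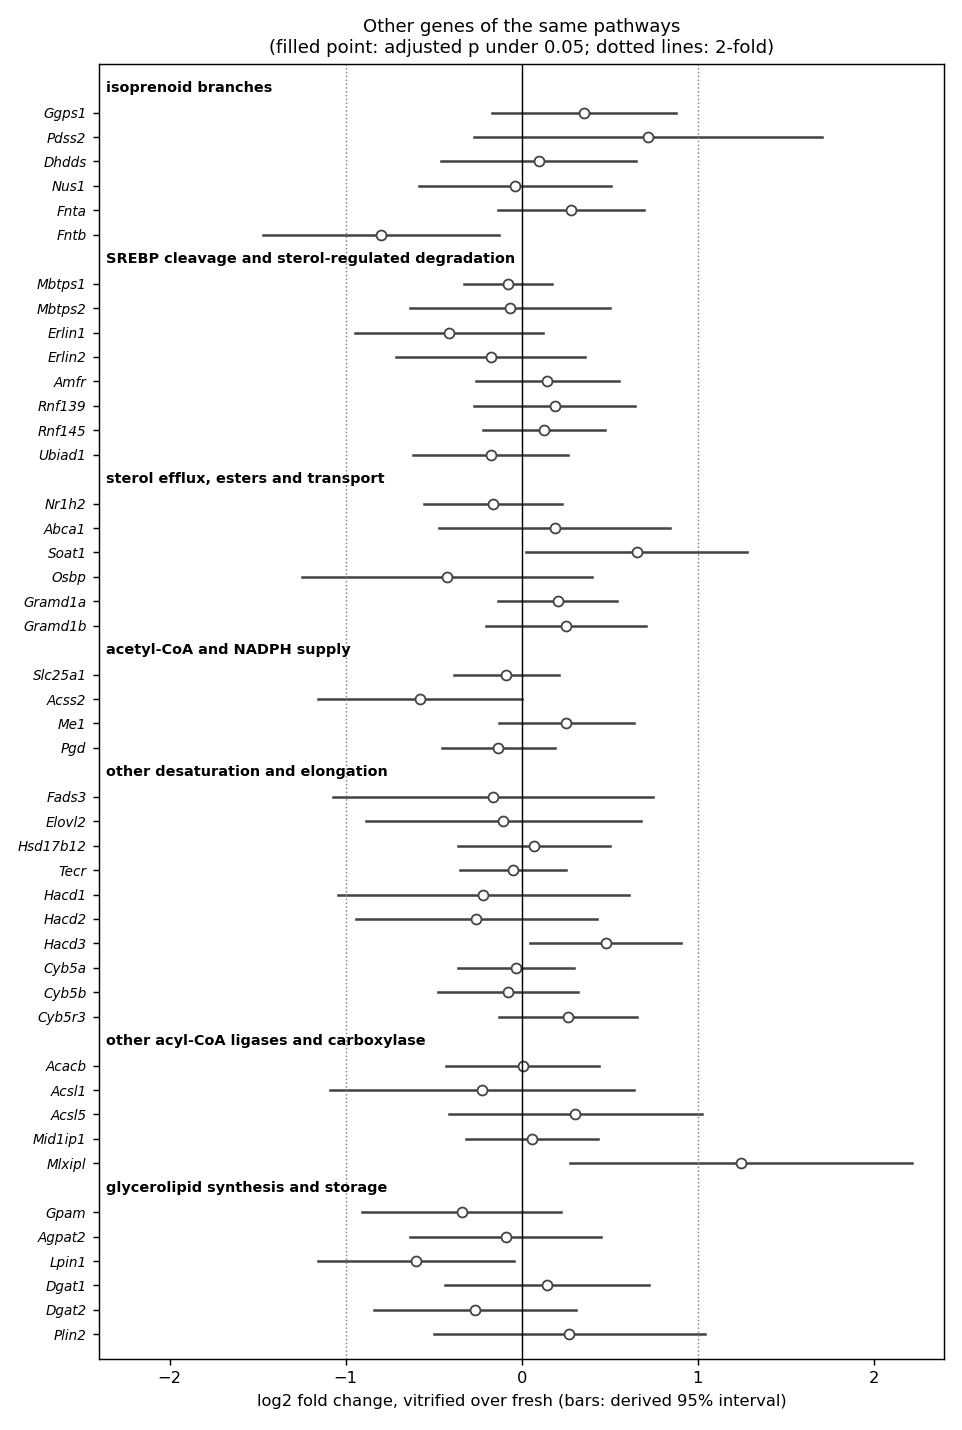
Log2 fold change (x axis, vitrified over fresh) of 45 of the 49 other pathway genes with an adjusted p, by role, without further sterol enzymes; points are deposited values and bars derived 95% intervals, with dotted lines at 2-fold. No point is filled, since 0 passed, and Mlxipl at 1.25 lies farthest from 0.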

How the data were processed

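RNA was measured in 12 single follicles, 6 per group, grouped by their titles. Tools listed in the submitters' processing notes are HISAT2, Bowtie2, Partek and DESeq2, with build mm10, in no stated role or order. No source used here gives the test behind the p-values or the counting rule. Per the file headers, the authors deposited a total count, p-value, step-up adjusted p-value, signed fold and log2 fold change for each gene. Totals are pooled and only 0.237% are whole numbers within 0.001, which bars a count model, and 843 genes with totals up to 59.44 have no adjusted p. The depth per follicle is unknown here.

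Errors and 95% intervals were derived from each fold change and p by a two-sided normal test (Python 3.11.15, scipy 1.17.1). The steps were tested on data simulated with normal errors, which cannot show whether the normal form holds for the deposited p. The median derived error was 0.22 for members and 0.29 for all tested genes. A plan for a count model, in case the table held values per follicle, was dropped. Coordinates, transcript lengths and shared 50-base windows (every 25 bases) came from GENCODE release 21 of the mouse (GRCm38). Members, lists, motifs and tests were chosen with earlier results of these data known. The rule for naming gave full values to the 2 members of each role with the lowest p and the one with the highest total, and named the 2 other genes per role with the lowest p and those with an unadjusted p under 0.05. Alternatives were a t distribution, the filter on totals, 2 centrings, leaving out members of shared sequence and a weighted mean. Some genes that this rule would name are not reported here.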

Additional observations from a re-analysis of the deposited data

How the results depend on the processing

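The call of Scd2 was the one result whose side of the threshold changed. The number of called members, and of those called lower, went from 1 to 0 with a t distribution of 10 degrees of freedom. It also did so with fold changes centred on the median of all tested genes. Centring on genes with a total of at least 1000 left no called member either. Scd2 kept its direction, at -0.80 with the t distribution (adjusted p = 0.816), -0.78 after centring on all tested genes (adjusted p = 0.0563) and -0.78 after centring on genes with a total of at least 1000 (adjusted p = 0.0518). Over its 5 alternatives its adjusted p ran from 0.0366 to 0.816. The other 35 members kept their direction and stayed uncalled under each alternative that included them. The median of the members ran from -0.03 to -0.01 over its alternatives, among them -0.01 without the 2 members that share at least 50% of windows and -0.03 for the weighted mean. No paired analysis was possible because the table holds no values per follicle, and for the same reason no follicle could be left out. Precision differed between members, with derived errors from 0.13 for Srebf2 to 0.34 for Ebp, and that of Fads2 was 0.33 in spite of a total of 3400.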
